A study of Arabidopsis thaliana with 18 samples.

Results

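After 1 h of simulated shade, 79 of 22746 probe sets stood higher in all of 3 Arabidopsis genotypes and kept at least 0.5 of their wild-type rise in sav3-2, a mutant of SAV3. SAV3, also called TAA1, is an aminotransferase of auxin synthesis. The 79 are described here: the size of their rise in the wild type and in the mutants, and how their levels over both lights differed between genotypes. Their working name calls them independent of sav3-2, but the sav3-2 rise ran from 0.53 to 1.76 of the Col-0 rise (median 0.96), so they are called the shade-raised members that kept at least 0.5 of their rise in sav3-2.

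RNA came from whole 7-day-old seedlings of the wild type Col-0 and of the mutants sav3-2 and sav1-1, all in the ecotype Col-0, grown on plates at 22 °C. White light, labelled Wc, was a mixture of 13 µmol m-2 s-1 red and 1.23 µmol m-2 s-1 blue. Seedlings labelled SH were given, on top of it, 20.2 µmol m-2 s-1 far-red for 1 h, which brought the red to far-red ratio (R:FR) down to 0.7 and is called low R:FR here. Each of the 6 groups held 3 arrays of an Affymetrix genome array, labelled as independent biological replicates. Which gene sav1-1 disrupts was not stated in the labels used here. The wild type against sav3-2 asks which parts of the early shade response need SAV3, and sav1-1 is a further mutant whose shade response was set beside both.

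Plants sense neighbours through light reflected from leaves, which is rich in far-red. Phytochrome B is switched off by that light, PIF transcription factors are released, and within the hour they raise a set of genes, some directly and some through a burst of auxin made by TAA1 and the YUCCA enzymes. Whole seedlings average over cotyledons, hypocotyl and root, so fewer cells of a type and less RNA per cell cannot be told apart.

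A rise is the mean of the 3 SH arrays minus the mean of the 3 Wc arrays on the scale log2(intensity + 16) after quantile normalization, and the members were chosen by it. In each genotype it had to be at least 0.6, the lowest SH array had to lie above the highest Wc array, and the rise in sav3-2 had to be at least 0.5 of that in Col-0. Control probe sets, AT4G27280, WES1, BIM1 and symbols starting IAA, GH3, HAT, YUC, EXLA, XTH, BZIP, WRKY, MYB, CYP or UGT were set aside. The rises and their differences between genotypes are therefore given as descriptions, with no test. Of 96 probe sets that met the demands on the rises and on the arrays, 8 kept less than 0.5 of the Col-0 rise in sav3-2 and 9 were set aside by name, among them IAA29, BIM1, EXLA1, EXLA2 and YUC2. All 79 members passed the filter on low values, which left 17125 probe sets for testing.

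Of the 79 members, 27 name 1 gene, 1 names a pair of genes (AT4G10160 and AT4G10150) and 51 are unnamed here. Among all 22746 probe sets, 13513 name 1 gene. No probe set used here names TAA1, so the mutated gene does not check the sav3-2 label. Across probe sets, arrays of the same group had r of 0.973 to 0.987. RCA, the rubisco activase of green tissue, was the 1 of 7 leaf markers named by a probe set used here, and had group means of 12.84 to 12.99. The root marker EXPA7 was the 1 of 8 so named, and of 5 seed markers 0 were. The other markers may lie among the unnamed probe sets, so they are not shown to be missing from the array. The arrays numbered 3 stood low in the members: their mean over the 79 lay 0.07 to 0.24 under the group mean in each of the 6 groups. The mean of all tested probe sets stayed within 0.009 of its own group mean on every array. Quantile normalization brings that about by itself, so nothing is read from it. Without those 6 arrays the rule found 92 members, of which 72 are among the 79, and the counts called without them are given beside each genotype comparison.

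The range of rises overlapped widely between the 3 genotypes. The median over the members was 1.13 in Col-0, 1.07 in sav3-2 and 1.29 in sav1-1, with lowest values of 0.62, 0.61 and 0.61 and highest values of 3.41, 3.63 and 3.83. On this scale a rise of 1 is a doubling of intensity + 16, and it was reached by 46 members in Col-0, 45 in sav3-2 and 58 in sav1-1. The rise in sav3-2 was above that in Col-0 for 34 members and at or below it for 45. In sav1-1 the rise ran from 0.50 to 1.74 of the Col-0 rise, with a median of 1.15, and was above it for 59 members. By the limma fit, 71 members were called higher after shade in Col-0 (all probe sets called higher: 0.94%), 64 in sav3-2 (0.631%) and 77 in sav1-1 (1.38%). Leaving out the sav3-2 SH array numbered 1 brought the sav3-2 count to 40 (all probe sets: 0.345%), and on the values as deposited the Col-0 count was 39 (all probe sets: 0.444%). The rule used these contrasts, so nothing is read from the counts.

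**Figure D1:**
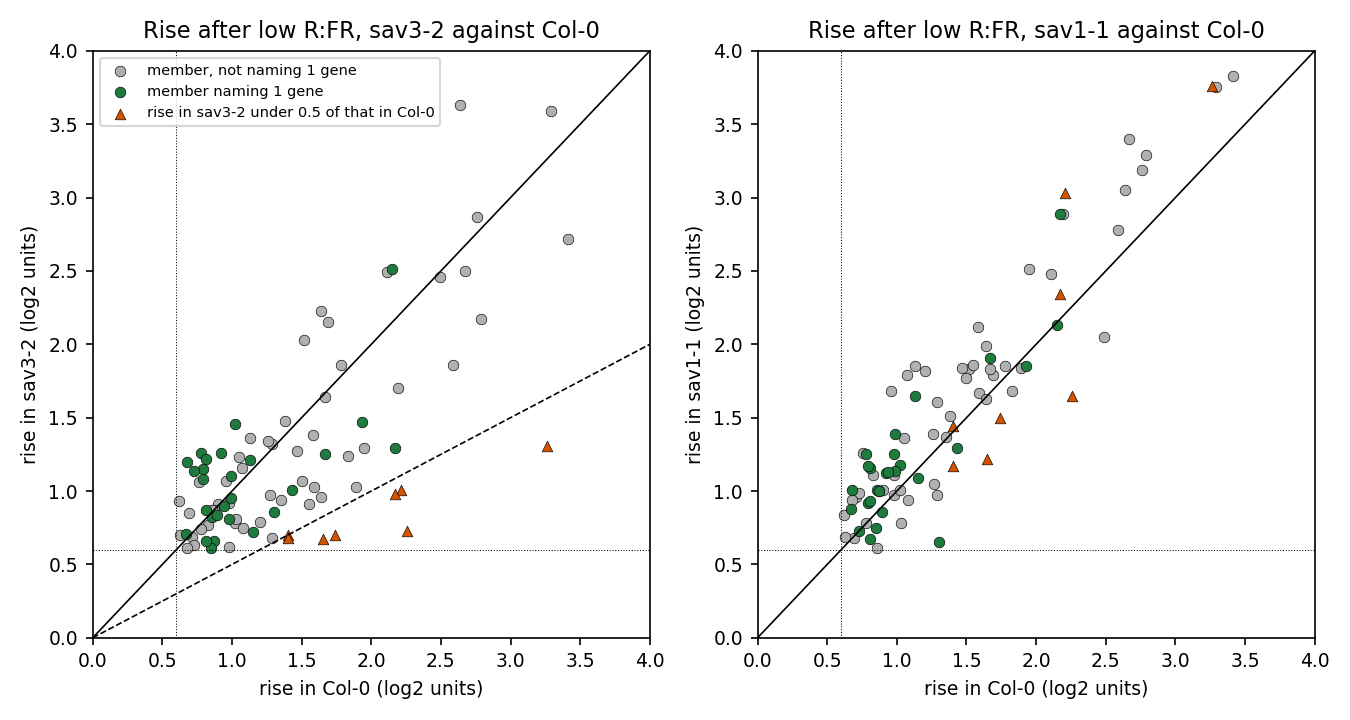
Rise after low R:FR (mean SH minus mean Wc, log2 units) in Col-0 on the horizontal axis against the rise in sav3-2 (left) and sav1-1 (right), with circles for the 79 members, triangles for the 8 probe sets that kept less than 0.5 of the rise in sav3-2, a solid line at equal rise, a dashed line at 0.5 of it and dotted lines at 0.6. In sav1-1 59 of the 79 members lie above the line of equal rise, and in sav3-2 34.

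The named members had a lower median rise than the unnamed ones, with no test. The median of the mean rise over the genotypes was 1.01 for the 27 named and 1.41 for the 51 unnamed members, and none of the 10 members with the largest mean rise names a gene. In 9 members the rise was at least 2 in every genotype, and AT5G12050 is the named one among them. Without the 6 arrays numbered 3 the rise of AT5G12050 was 1.58 in Col-0, 2.22 in sav3-2 and 1.95 in sav1-1. On the values as deposited its Col-0 rise was 1.96. The member with the largest sav3-2 rise is unnamed: it read 4.09, 4.25 and 4.12 in Wc and 7.01, 6.77 and 6.60 in SH in Col-0, and 4.09, 4.34 and 4.12 in Wc and 7.94, 8.02 and 7.48 in SH in sav3-2. Its Wc values lay close to 4, the lower end of the scale, where log2(intensity + 16) understates a change. In all, 7 members had a Col-0 Wc mean under 5.

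At the edges of the rule the members differed little from their neighbours. The smallest rises inside it were 0.61, in AT1G54200 and in an unnamed member in sav3-2 and in another unnamed member in sav1-1. Just outside were an unnamed probe set with 0.60 in sav3-2 (before rounding under 0.6), AT3G44610 with 0.59 in sav3-2 and AT3G13980 with 0.59 in sav1-1. For the share kept in sav3-2 the closest values inside were 0.53, 0.54 and 0.58, and outside 0.50 (before rounding under 0.5), 0.49 and 0.46. In all, 21 probe sets missed membership with a smallest rise of at least 0.5 but under 0.6, among them those named above as just outside on the rise. Another 10 missed it because SH and Wc arrays overlapped in at least 1 genotype.

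**Figure D2:**
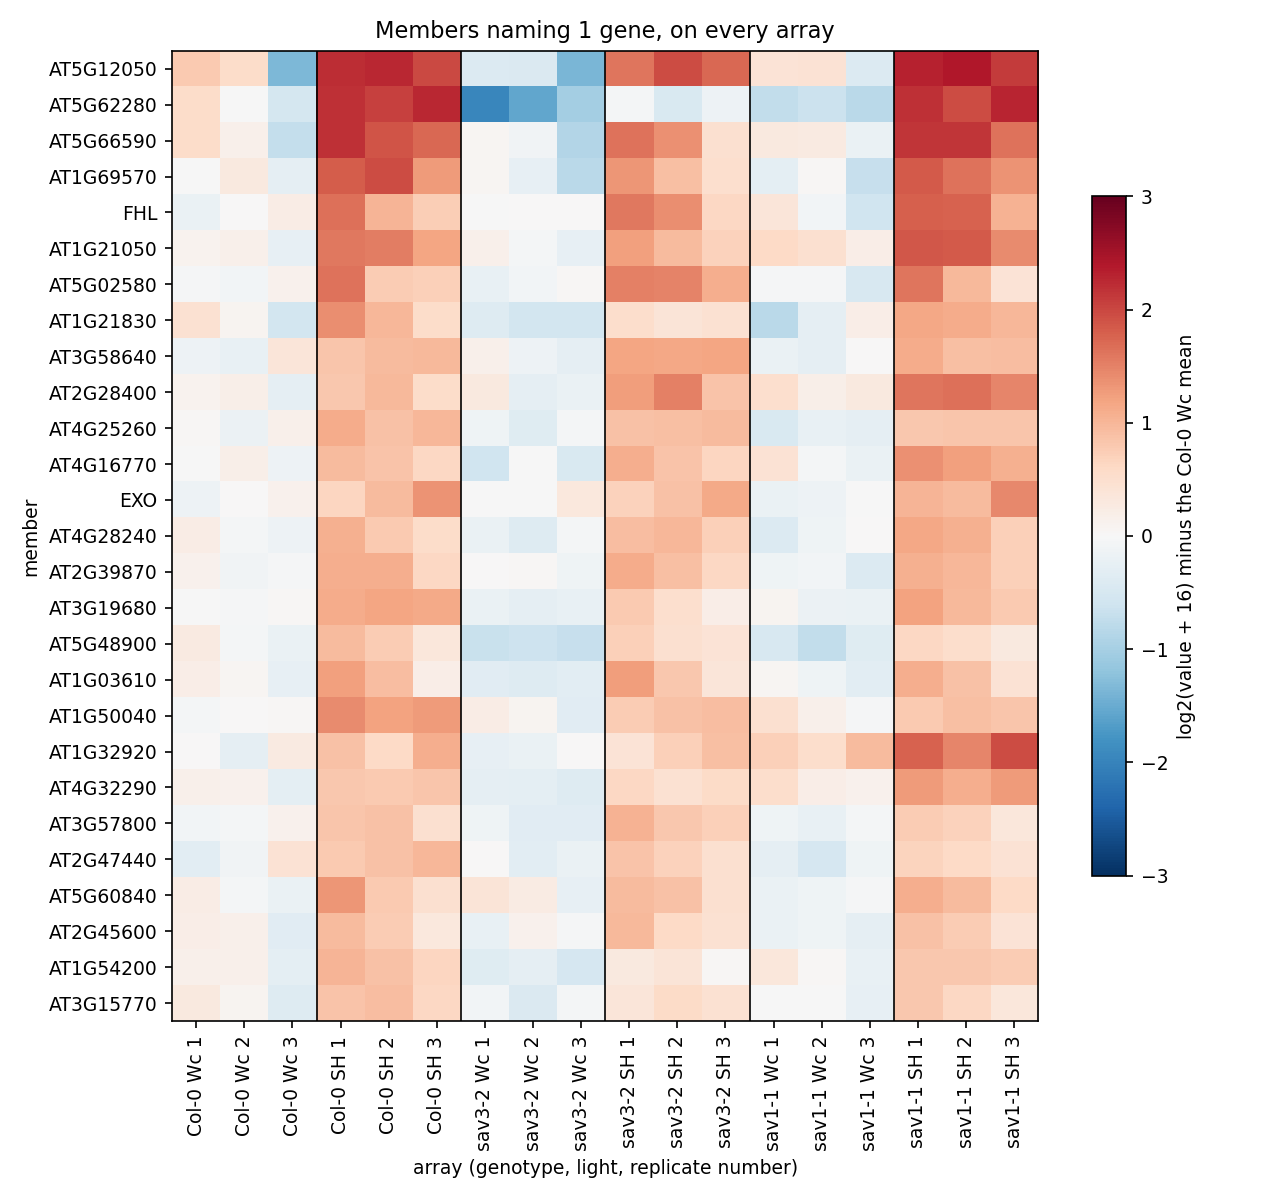
Level of the 27 members that name 1 gene (rows) on each of the 18 arrays (columns, by genotype and light), as log2 difference from the member's own mean over the 3 Col-0 Wc arrays. Every row stands higher on the SH than on the Wc arrays of each genotype, as the rule demands, and AT5G62280 is the row with the lowest Wc values in sav3-2.

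The named members that act in signalling or transcription were FHL, AT1G69570, AT3G57800 and AT3G58640. FHL is a small protein that, with its relative FHY1, carries phytochrome A into the nucleus. In Col-0 it read 5.04, 5.25 and 5.47 in Wc and 6.90, 6.26 and 5.99 in SH, in arrays 1, 2 and 3 in that order, as for all values that follow. In sav3-2 the values were 5.23, 5.25 and 5.26 in Wc and 6.83, 6.64 and 5.88 in SH, and in sav1-1 they were 5.62, 5.16 and 4.65 in Wc and 7.04, 7.03 and 6.30 in SH. The 3 genotypes overlapped in both lights, and the arrays numbered 3 were the lowest of each SH group. The rises were 1.13 in Col-0, 1.21 in sav3-2 and 1.65 in sav1-1 (SE 0.27 for each).

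AT1G69570 encodes a Dof zinc-finger factor of the CYCLING DOF FACTOR family, whose members repress flowering genes early in the day. Col-0 arrays held 6.40, 6.71 and 6.13 in Wc and 8.22, 8.36 and 7.69 in SH. The sav3-2 arrays held 6.48, 6.16 and 5.61 in Wc and 7.74, 7.32 and 6.92 in SH. Those of sav1-1 held 6.12, 6.45 and 5.73 in Wc and 8.25, 8.03 and 7.76 in SH. In shade 2 of 3 sav3-2 arrays lay under all Col-0 arrays, but the groups overlapped, and the rises were 1.67 in Col-0, 1.25 in sav3-2 and 1.91 in sav1-1 (SE 0.24 for each). AT3G57800, a basic helix-loop-helix factor, read 7.53, 7.57 and 7.76 in Wc and 8.45, 8.51 and 8.09 in SH in Col-0. The corresponding sav3-2 values were 7.48, 7.28 and 7.27 in Wc and 8.66, 8.44 and 8.34 in SH. In sav1-1 it read 7.48, 7.40 and 7.56 in Wc and 8.39, 8.30 and 7.95 in SH. Its sav3-2 Wc arrays all lay under the Col-0 Wc arrays, while the SH arrays of both genotypes overlapped, and the rises were 0.73 in Col-0, 1.14 in sav3-2 and 0.73 in sav1-1 (SE 0.13 for each).

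AT3G58640 encodes a protein kinase related to the MAP kinase kinase kinases. Its Col-0 values were 6.99, 6.92 and 7.51 in Wc and 7.98, 8.10 and 8.11 in SH. Its sav3-2 values were 7.30, 6.98 and 6.87 in Wc and 8.32, 8.29 and 8.33 in SH, and its sav1-1 values were 6.94, 6.88 and 7.16 in Wc and 8.25, 8.04 and 8.06 in SH. In shade every sav3-2 array lay above every Col-0 and sav1-1 array, whereas in white light the genotypes overlapped. The rises were 0.92 in Col-0, 1.26 in sav3-2 and 1.12 in sav1-1 (SE 0.14 for each).

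A second group of named members encodes proteins of the cell wall or of secreted families: AT5G66590, EXO, AT4G25260 and AT5G48900. AT5G66590 belongs to the CAP superfamily of secreted cysteine-rich proteins. On Col-0 arrays it read 7.87, 7.47 and 6.60 in Wc and 9.50, 9.20 and 9.04 in SH. On sav3-2 arrays it read 7.36, 7.21 and 6.43 in Wc and 8.95, 8.67 and 7.78 in SH. On sav1-1 arrays it read 7.60, 7.58 and 7.12 in Wc and 9.45, 9.46 and 8.95 in SH. The array numbered 3 was the lowest of all 6 groups, and in shade the sav3-2 arrays lay under those of Col-0. Its rises were 1.93 in Col-0, 1.47 in sav3-2 and 1.85 in sav1-1 (SE 0.30 for each). EXO (EXORDIUM), which brassinosteroids raise and which promotes cell expansion in leaves, had rises of 0.98 in Col-0, 0.81 in sav3-2 and 1.25 in sav1-1 (SE 0.16 for each).

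AT4G25260 is of the invertase and pectin methylesterase inhibitor family. It read 7.75, 7.53 and 7.86 in Wc and 8.82, 8.59 and 8.70 in SH in Col-0, and 7.58, 7.34 and 7.64 in Wc and 8.60, 8.62 and 8.66 in SH in sav3-2. The sav1-1 arrays gave 7.26, 7.49 and 7.45 in Wc and 8.52, 8.55 and 8.54 in SH. Replicates of this gene lay close together, and the sav1-1 arrays were under all Col-0 arrays in both lights. Rises were 0.99 in Col-0, 1.1 in sav3-2 and 1.14 in sav1-1 (SE 0.11 for each). AT5G48900 is a member of the pectate lyase family, enzymes that cleave pectin, and had the highest ratio of sav3-2 to Col-0 rise of all members, 1.76. Its Col-0 arrays read 9.08, 8.73 and 8.60 in Wc and 9.76, 9.55 and 9.15 in SH, and its sav3-2 arrays 8.13, 8.18 and 8.10 in Wc and 9.52, 9.28 and 9.20 in SH. The sav1-1 readings were 8.33, 8.05 and 8.43 in Wc and 9.43, 9.32 and 9.10 in SH. In white light both mutants lay under every Col-0 array, and in shade they overlapped with Col-0. The rises were 0.68 in Col-0, 1.20 in sav3-2 and 1.01 in sav1-1 (SE 0.15 for each).

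The members of other known families were AT1G21050, AT4G32290, AT2G28400, AT4G16770, AT4G28240, AT3G19680, AT1G50040, AT1G03610, AT2G45600 and AT2G47440. AT1G21050, of the MIZU-KUSSEI-like family, read 8.40, 8.44 and 8.04 in Wc and 9.88, 9.82 and 9.48 in SH in Col-0. Its sav3-2 arrays gave 8.45, 8.22 and 8.05 in Wc and 9.53, 9.24 and 8.99 in SH. Its sav1-1 arrays gave 8.88, 8.76 and 8.48 in Wc and 10.16, 10.14 and 9.70 in SH. The sav1-1 arrays were above those of sav3-2 in both lights and above those of Col-0 in white light. Its rises were 1.43 in Col-0, 1.01 in sav3-2 and 1.29 in sav1-1 (SE 0.16 for each).

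AT2G28400 belongs to a family named for a senescence regulator. It read 5.46, 5.54 and 5.09 in Wc and 6.17, 6.33 and 5.92 in SH in Col-0, and 5.65, 5.09 and 5.16 in Wc and 6.61, 6.86 and 6.22 in SH in sav3-2. It read 5.86, 5.54 and 5.66 in Wc and 6.97, 7.02 and 6.82 in SH in sav1-1. The mutants had larger rises than the wild type, 0.78 in Col-0, 1.26 in sav3-2 and 1.25 in sav1-1 (SE 0.18 for each), and in shade all sav1-1 arrays were above all Col-0 arrays. AT4G16770, an oxygenase of the 2-oxoglutarate and iron(II) superfamily, read 6.43, 6.61 and 6.29 in Wc and 7.40, 7.30 and 7.05 in SH in Col-0. In sav3-2 it read 5.85, 6.42 and 5.98 in Wc and 7.53, 7.30 and 7.08 in SH. In sav1-1 it read 6.87, 6.37 and 6.24 in Wc and 7.80, 7.66 and 7.50 in SH. All sav1-1 arrays in shade were above those of Col-0, and the other groups overlapped between genotypes. The rises were 0.81 in Col-0, 1.22 in sav3-2 and 1.16 in sav1-1 (SE 0.17 for each).

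AT4G28240, of a wound-responsive family, had Col-0 values of 9.47, 9.17 and 9.09 in Wc and 10.30, 10.02 and 9.79 in SH. Values in sav3-2 were 9.04, 8.85 and 9.19 in Wc and 10.17, 10.23 and 9.95 in SH. Values in sav1-1 were 8.83, 9.10 and 9.24 in Wc and 10.40, 10.31 and 9.96 in SH. The 3 genotypes overlapped in both lights, with rises of 0.79 in Col-0, 1.08 in sav3-2 and 1.17 in sav1-1 (SE 0.15 for each). AT1G03610, of a family of unknown function, read 7.72, 7.58 and 7.28 in Wc and 8.75, 8.46 and 7.73 in SH in Col-0. It gave 7.20, 7.14 and 7.21 in Wc and 8.79, 8.34 and 7.89 in SH in sav3-2. It gave 7.60, 7.41 and 7.22 in Wc and 8.61, 8.42 and 7.97 in SH in sav1-1. This gene was the closest to being left out for overlap, since only 0.01 separated its lowest SH from its highest Wc array in Col-0. Its rises were 0.79 in Col-0, 1.15 in sav3-2 and 0.92 in sav1-1 (SE 0.22 for each). Among the members not shown array by array, the Col-0 rise was 1.30 in AT1G50040, a relative of AT3G19680 in a family of unknown function. In that gene the rise was 0.86 in sav3-2 and 0.65 in sav1-1. AT2G47440, a protein with tetratricopeptide repeats, had rises of 0.89 in Col-0, 0.84 in sav3-2 and 0.86 in sav1-1 (SE 0.15 for each). AT2G45600, an alpha/beta-hydrolase, had rises of 0.67 in Col-0, 0.71 in sav3-2 and 0.88 in sav1-1 (SE 0.18 for each).

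The remaining named members are AT5G12050, AT5G62280, AT5G02580, AT1G21830, AT1G54200, AT1G32920, AT2G39870, AT5G60840 and AT3G15770. AT5G12050 had the largest mean rise of all named members. In Col-0 it read 9.07, 8.85 and 6.95 in Wc and 10.51, 10.55 and 10.26 in SH. In sav3-2 it read 7.88, 7.85 and 6.91 in Wc and 9.89, 10.24 and 10.02 in SH, and in sav1-1 8.70, 8.73 and 7.89 in Wc and 10.61, 10.70 and 10.39 in SH. The Wc array numbered 3 was the lowest of each genotype, and the SD of the Wc arrays was 1.17 in Col-0, 0.55 in sav3-2 and 0.47 in sav1-1. The rises were 2.15 in Col-0, 2.51 in sav3-2 and 2.13 in sav1-1 (SE 0.36 for each). That SE rests on 1 variance for all 6 groups, so it does not show the wider spread of the Col-0 Wc arrays. AT5G02580 read 4.98, 4.93 and 5.14 in Wc and 6.64, 5.76 and 5.72 in SH in Col-0. Its values in sav3-2 were 4.78, 4.93 and 5.04 in Wc and 6.53, 6.49 and 6.11 in SH. Its values in sav1-1 were 4.98, 4.97 and 4.52 in Wc and 6.61, 5.98 and 5.43 in SH. The genotypes overlapped in both lights, and the rises were 1.02 in Col-0, 1.46 in sav3-2 and 1.18 in sav1-1 (SE 0.25 for each).

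AT1G21830 read 8.11, 7.74 and 7.12 in Wc and 9.06, 8.65 and 8.22 in SH in Col-0. Its sav3-2 arrays held 7.28, 7.12 and 7.12 in Wc and 8.19, 8.04 and 8.11 in SH. Its sav1-1 arrays held 6.84, 7.38 and 7.87 in Wc and 8.82, 8.77 and 8.66 in SH. In shade all sav3-2 arrays lay below those of Col-0 and of sav1-1, and its rises were 0.99 in Col-0, 0.95 in sav3-2 and 1.39 in sav1-1 (SE 0.23 for each). The lowest to highest rises of the members AT2G39870, AT5G60840 and AT3G15770 were 0.90 to 1.13, 0.66 to 1.00 and 0.66 to 0.81 over the 3 genotypes.

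Over both lights, 23 members stood at a lower level in sav3-2 than in Col-0, AT5G62280 first among the named ones. This difference in level, the mean of a genotype over its 6 arrays in both lights minus that of Col-0, was tested with limma over all 17125 probe sets. It is not a measure the rule used, but it equals the white-light difference plus 0.5 of the difference in rise. Of the 79 members, 24 passed (all probe sets: 2.25%), 23 of them lower (all probe sets: 1.33%) and 1 higher (0.923%). The 23 are 29.1% of the members. Their differences ran from -1.96 to -0.33, with a median of -0.78. For 15 of the 79 members, all among the 23, every sav3-2 array lay under every Col-0 array in both lights (all probe sets: 1.42%). Of the 228 probe sets called lower over the whole array, 62.7% did so, beside 65.2% of the 23. With the replicate number as a block 33 members were called (all probe sets: 4.55%), and 33 without the 6 arrays numbered 3 (all probe sets: 3.5%). On the values as deposited 18 were called, 16 of them lower, with 166 of 17118 probe sets called, and 16 of the 18 are among the 24. Calls were lost in 11 of the 18 fits without 1 array for 1 unnamed lower member and in 14 for another. Over all 79 members the median difference was -0.266, beside 0.00445 over all probe sets tested, and 61 lay below 0, beside 48.7% of all. At an unadjusted p under 0.05 there were 40 members (all probe sets: 13.3%). The sav3-2 mean was below the Col-0 mean in white light for 65 members, in shade for 59, and in both lights for 52, which is 65.8% of the members against 28.8% of all probe sets tested.

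**Figure D3:**
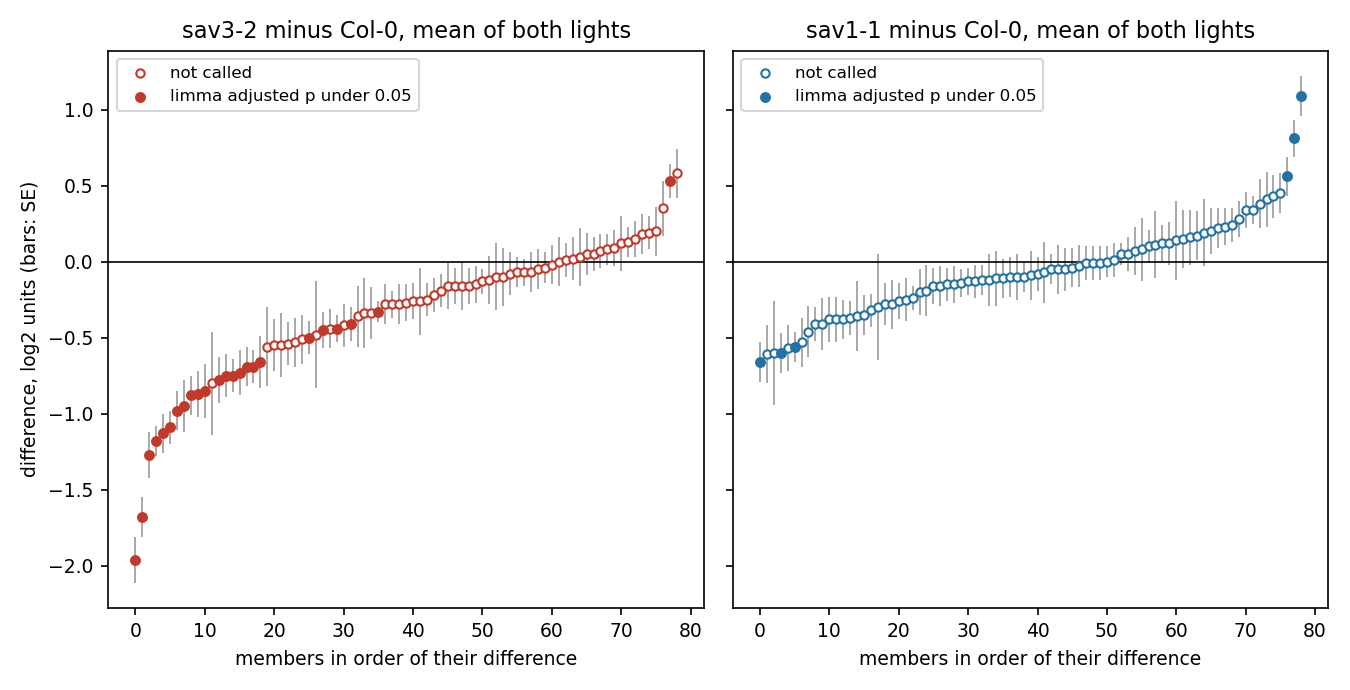
Difference in level over both lights (log2 scale) of each of the 79 members, sorted within each panel, for sav3-2 minus Col-0 and for sav1-1 minus Col-0, with bars of 1 SE and filled points for members called by limma. In sav3-2 against Col-0 the points reach from -1.96 to 0.58 and 23 lower members are called, while in sav1-1 against Col-0 6 are called, 3 on each side of 0.

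The 23 lower members were AT5G62280, AT3G19680, AT1G54200, AT5G48900, the pair AT4G10160 and AT4G10150, and 18 unnamed ones. AT5G62280 differed most. Its Col-0 arrays read 8.41, 7.83 and 7.32 in Wc and 10.05, 9.89 and 10.12 in SH. Its sav3-2 arrays read 5.90, 6.29 and 6.82 in Wc and 7.79, 7.39 and 7.70 in SH. Its sav1-1 arrays read 7.10, 7.20 and 7.03 in Wc and 10.05, 9.81 and 10.13 in SH. All sav3-2 arrays lay below all Col-0 arrays of the same light, and shaded sav3-2 seedlings, with a mean of 7.63, did not reach the white-light mean of Col-0, 7.85. No other lower member had its shaded sav3-2 mean under the Col-0 white-light mean. The difference of AT5G62280 over both lights was -1.96 (SE 0.15, adjusted p = 3.43e-08), and its rises were 2.17 in Col-0, 1.29 in sav3-2 and 2.89 in sav1-1 (SE 0.21 for each). Its sav3-2 mean differed from Col-0 by -1.52 in white light and -2.39 in shade, so part of the difference is the smaller rise. It kept 0.60 of the Col-0 rise in sav3-2, and with a pseudocount of 64 it was no longer a member.

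AT3G19680, of the family of unknown function shared with AT1G50040, read 7.94, 7.92 and 7.98 in Wc and 9.07, 9.14 and 9.08 in SH in Col-0. It read 7.75, 7.69 and 7.73 in Wc and 8.73, 8.46 and 8.14 in SH in sav3-2. It read 8.03, 7.77 and 7.75 in Wc and 9.15, 8.93 and 8.74 in SH in sav1-1. The sav3-2 arrays lay below those of Col-0 in both lights, and the difference was -0.44 (SE 0.09, adjusted p = 0.00904), with rises of 1.15 in Col-0, 0.72 in sav3-2 and 1.09 in sav1-1 (SE 0.13 for each). On the values as deposited, with no common scale, that call was lost (-0.40, adjusted p = 1). AT1G54200 read 6.36, 6.36 and 5.92 in Wc and 7.23, 7.10 and 6.85 in SH in Col-0. Its sav3-2 readings were 5.84, 5.95 and 5.71 in Wc and 6.51, 6.59 and 6.24 in SH. Its sav1-1 readings were 6.54, 6.25 and 5.99 in Wc and 7.01, 7.02 and 6.97 in SH. In shade sav3-2 lay below both other genotypes, in white light it overlapped with Col-0, and the difference was -0.50 (SE 0.11, adjusted p = 0.0129), lost on the values as deposited (-0.46, adjusted p = 0.466). Its rises were 0.85 in Col-0, 0.61 in sav3-2 and 0.75 in sav1-1 (SE 0.15 for each).

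AT5G48900, whose values are given above, differed by -0.41 (SE 0.11, adjusted p = 0.0455). This call was lost in 12 of the 18 fits that leave out 1 array, on the values as deposited (-0.36, adjusted p = 1) and with arrays scaled to a common median (adjusted p = 0.0789). Its difference was -0.67 in white light and -0.15 in shade. Among the unnamed lower members, the one with the largest difference read 9.03, 8.65 and 8.30 in Wc and 11.03, 10.82 and 10.71 in SH in Col-0. It read 6.92, 7.52 and 7.25 in Wc and 9.10, 9.06 and 8.63 in SH in sav3-2. It read 7.99, 8.05 and 8.61 in Wc and 11.03, 11.06 and 11.24 in SH in sav1-1. In both lights sav3-2 lay below Col-0 and sav1-1, which overlapped with each other, and the difference from Col-0 was -1.68 (SE 0.13, adjusted p = 3.91e-08). The member called higher was the unnamed one with the largest sav3-2 rise, with 0.53 (SE 0.11, adjusted p = 0.0104). Its mean was 0.03 above Col-0 in white light and 1.02 above it in shade, so the difference over both lights lay in the SH arrays. With a pseudocount of 1 this call was lost (0.63, adjusted p = 0.299).

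**Figure D4:**
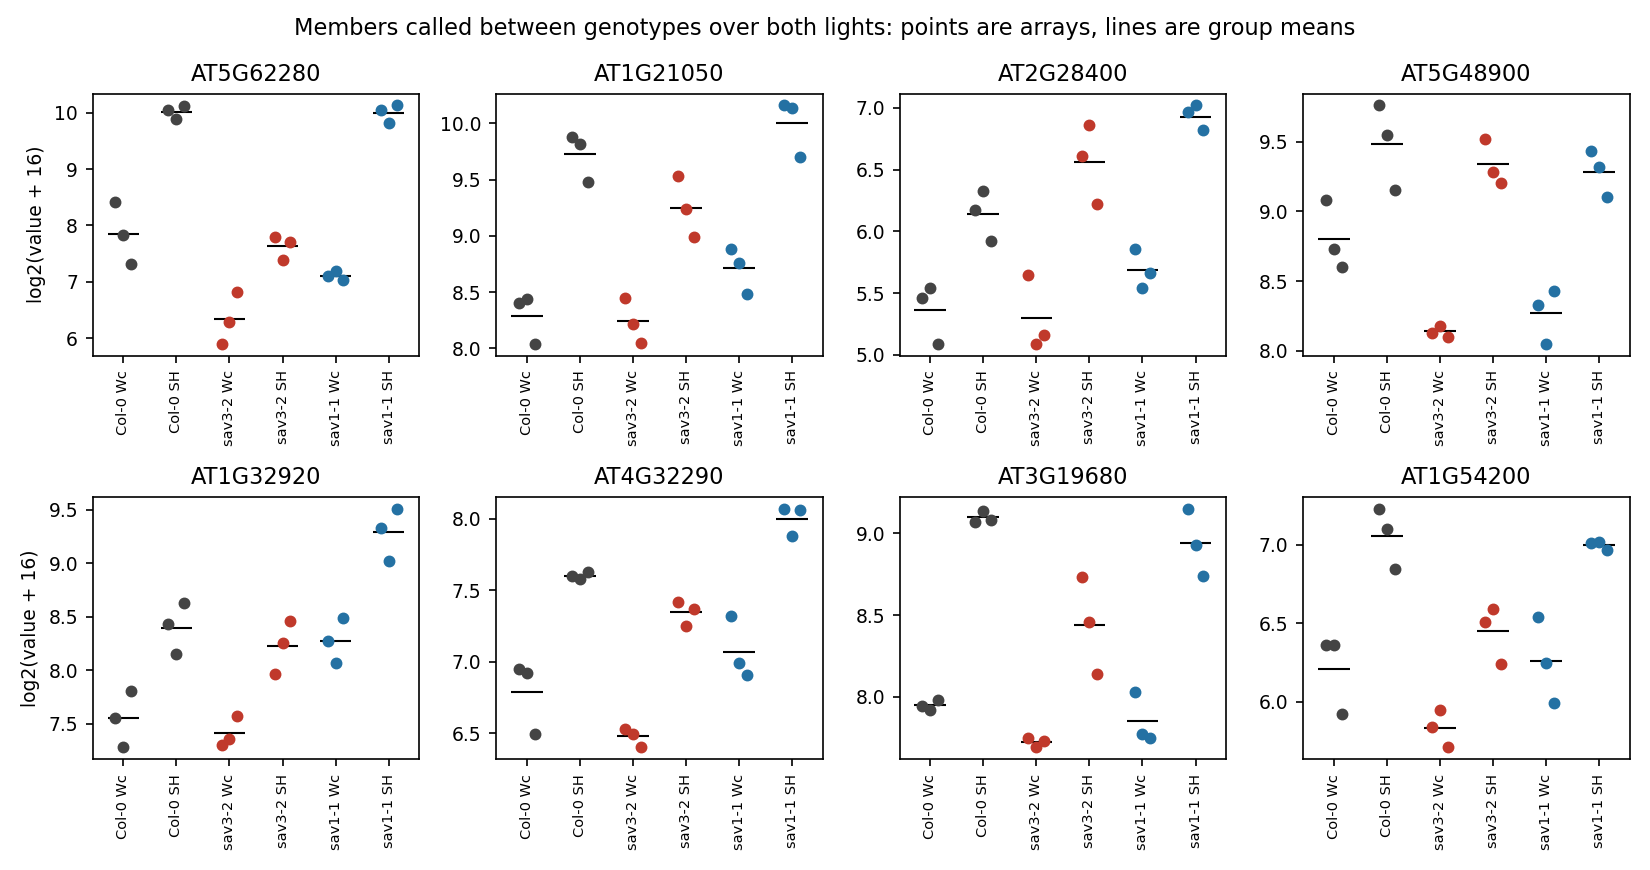
Level (log2(intensity + 16), quantile normalized) on each of the 18 arrays of the 8 named members called in a genotype comparison over both lights, by genotype and light, with 1 point per array and a line at the group mean. Each panel has its own vertical axis. AT5G62280 in sav3-2 reached 7.39 to 7.79 in shade, against 9.81 or more in the other genotypes.

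In white light alone, the 23 lower members had sav3-2 differences from -1.52 to -0.17, with a median of -0.70, beside -0.23 over all 79. The sav3-2 rise was a median 0.76 of the Col-0 rise in the 23 and 1.03 in the other 56. Since a smaller rise in sav3-2 lowers the level over both lights by arithmetic, nothing is read from that contrast. The 8 shade-raised probe sets that kept less than 0.5 of the rise in sav3-2, among them HAT2 and AT3G50340, had white-light differences from -0.97 to -0.29, with a median of -0.76, as a description.

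Within each replicate number, the median difference of the 79 members between sav3-2 and Col-0 was -0.25, -0.22 and -0.24 in numbers 1, 2 and 3, with 59, 62 and 64 members below 0.

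Between sav1-1 and Col-0, 6 of 79 members were called over both lights (all probe sets: 1.54%), AT1G32920, AT2G28400 and an unnamed member higher and 3 unnamed members lower, and the median difference was -0.0939 beside 0.00167 over all probe sets tested. At an unadjusted p under 0.05 there were 28 members (all probe sets: 12.1%). With the replicate number as a block, by which the genotypes were taken to be paired, 20 members were called, 7 higher and 13 lower (all probe sets: 3.37%). Without the 6 arrays numbered 3, 14 were called (all probe sets: 1.94%). On the values as deposited the median difference was 0.0414, of the opposite sign, beside a shift of 0.111 over all probe sets, so the members again lay below the bulk. There the 3 higher calls were kept and the 3 lower ones were lost, with 115 of 17118 probe sets called.

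AT1G32920 was the named member with the clearest difference in sav1-1. It read 7.55, 7.28 and 7.81 in Wc and 8.43, 8.15 and 8.63 in SH in Col-0. The sav3-2 arrays gave 7.30, 7.36 and 7.57 in Wc and 7.97, 8.26 and 8.46 in SH. The sav1-1 arrays gave 8.27, 8.07 and 8.49 in Wc and 9.33, 9.02 and 9.51 in SH. All sav1-1 arrays lay above all arrays of both other genotypes in the same light, and Col-0 and sav3-2 overlapped. The difference was 0.81 (SE 0.12, adjusted p = 0.000547) from Col-0 and 0.96 (SE 0.12, adjusted p = 2.04e-05) from sav3-2, with rises of 0.86 in Col-0, 0.82 in sav3-2 and 1.01 in sav1-1 (SE 0.16 for each). AT2G28400 differed from Col-0 by 0.56 (SE 0.13, adjusted p = 0.0246), a call lost in 7 of 18 fits without 1 array and without the arrays numbered 3 (0.47, adjusted p = 0.0902). The other member called higher is unnamed, with a difference of 1.09 (SE 0.13, adjusted p = 0.000102).

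Between the mutants, 20 of 79 members were called (all probe sets: 2.87%), all of them higher in sav1-1 than in sav3-2 (all probe sets: 1.61%), by 0.39 to 1.58 with a median of 0.69. Over all members the median was 0.278, beside -0.00347 over all probe sets tested, and 57 lay above 0. With the replicate number as a block 35 were called, 33 higher and 2 lower (all probe sets: 4.97%). Without the 6 arrays numbered 3, 26 were called, 23 higher and 3 lower (all probe sets: 3.76%). The root marker EXPA7 was also higher in sav1-1 than in sav3-2, by 0.66 (adjusted p = 0.00547), and its part in the result was not tested. It differed by -0.26 between sav3-2 and Col-0 (adjusted p = 0.416).

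The named members called here were AT5G62280 at 1.57 (SE 0.15, adjusted p = 6.53e-07), AT1G32920, AT4G32290, AT1G21050 and AT1G54200. AT4G32290, of a family like the core-2/I-branching glycosyltransferases, read 6.95, 6.92 and 6.49 in Wc and 7.60, 7.58 and 7.63 in SH in Col-0. In sav3-2 the arrays held 6.53, 6.49 and 6.40 in Wc and 7.42, 7.25 and 7.37 in SH. In sav1-1 the arrays held 7.32, 6.99 and 6.91 in Wc and 8.07, 7.88 and 8.06 in SH. In shade the order was sav3-2, Col-0, sav1-1 with no overlap, and in white light sav1-1 lay above sav3-2. It was 0.63 (SE 0.09, adjusted p = 0.0002) higher in sav1-1 than in sav3-2, and its rises were 0.81 in Col-0, 0.87 in sav3-2 and 0.93 in sav1-1 (SE 0.13 for each). AT1G21050 was 0.61 (SE 0.12, adjusted p = 0.00321) higher, and AT1G54200 0.49 (SE 0.11, adjusted p = 0.0121), the latter not called on the values as deposited (0.57, adjusted p = 0.0756).

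The difference in rise between genotypes enters the rule for sav3-2 and Col-0, and in part for sav1-1. Its limma test called 0 of the 79 members in any of the 3 pairs of genotypes. An unadjusted p under 0.05 was found for 14 members in sav3-2 against Col-0 (all probe sets: 3.98%). It was found for 8 in sav1-1 against Col-0 (all probe sets: 2.52%) and for 16 in sav1-1 against sav3-2 (all probe sets: 3.11%). After adjustment, all probe sets gave 7, 0 and 7 calls, which is 0.0409%, 0% and 0.0409%. The median difference in rise was -0.0384, 0.183 and 0.193. The members were chosen to have a like rise, and nothing is read from the zeros.

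Few genes of the surrounding pathways can be set beside the members, since most are not named by a probe set used here. Of 26 shade markers and growth regulators, 5 were measured: HAT2, BIM1, IAA29, XTH33 and FHL, of which FHL is a member. All 5 were called higher after shade in Col-0 (median 1.20, all probe sets: 0.94%). In sav3-2 4 were (median 1.21, all probe sets: 0.631%), and in sav1-1 5 (median 1.65, all probe sets: 1.38%). FHL, IAA29, BIM1 and HAT2 met the demands on the rises and on the arrays in every genotype, so nothing is read from these counts. The sav3-2 and sav1-1 medians are the values of FHL itself. Over both lights HAT2, an auxin-inducible homeodomain factor, was called lower in sav3-2 than in Col-0 with a difference of -1.57, and so was IAA29, an auxin-response repressor, with -1.47. Of 26 genes of auxin synthesis, transport and response, 5 were measured: the synthesis genes YUC2 and YUC6, the conjugating enzymes GH3.3 and GH3.5, and SAUR10. After shade 4 were called higher in Col-0, 2 in sav3-2 and 3 in sav1-1, with medians of 0.958, 0.487 and 1.04. Over both lights GH3.3 and GH3.5 were called lower in sav3-2 than in Col-0, with -1.03 and -0.82. The same genes were called higher in sav1-1 than in Col-0, by 0.77 and 0.45 (limma adjusted p = 0.00022 and 0.0161). They were also called higher in sav1-1 than in sav3-2, by 1.80 and 1.27. YUC2, YUC6 and SAUR10 were not called between genotypes over both lights. Of 19 phytochromes, cryptochromes, PIFs and their regulators 0 are named by a probe set used here, and GID1A and EIN3, the measured 2 of 20 genes of other hormones, were not called in any of these comparisons.

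**Figure D5:**
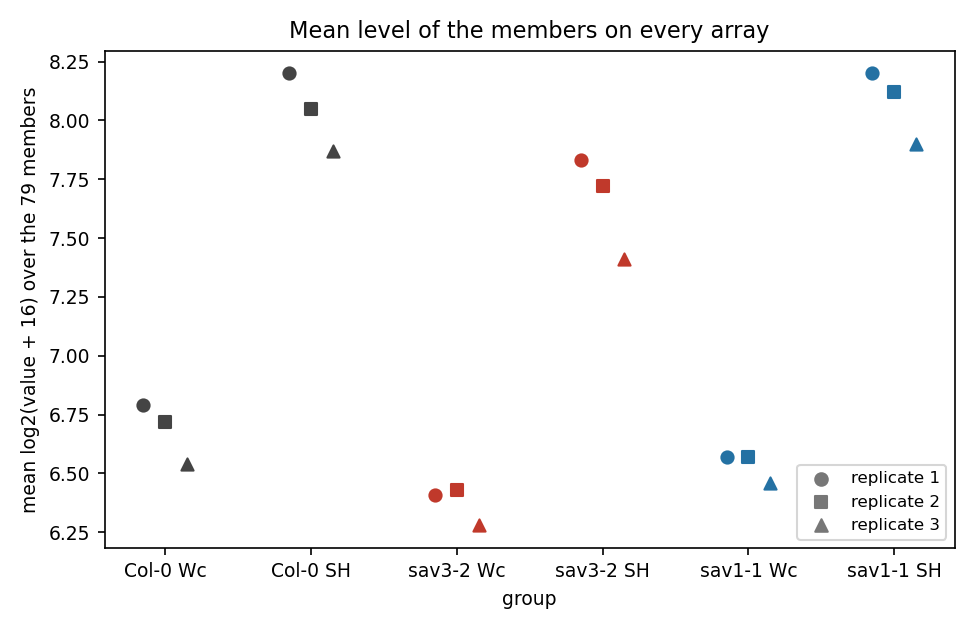
Mean level (log2(intensity + 16), quantile normalized) of the 79 members on each of the 18 arrays, by genotype and light, with 1 symbol per replicate number. The mean runs from 6.28 to 6.79 in white light and from 7.41 to 8.20 in shade, sav3-2 lies lowest in both lights, and the array numbered 3 is the lowest of every group.

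The members varied together between replicates. The correlation of their deviations from group means over the 18 arrays was 0.20 on average over pairs of members, and 0.00024 over pairs of all tested probe sets. Both values are descriptions, since the arrays numbered 3 were low in all of the groups. Quantile normalization by itself holds down the second value, so nothing is read from the contrast. The residual SD had a median of 0.26 in the members and 0.19 in all tested probe sets. The mean over the 79 was 6.79, 6.72 and 6.54 in Col-0 Wc and 8.20, 8.05 and 7.87 in Col-0 SH. In sav3-2 it was 6.41, 6.43 and 6.28 in Wc and 7.83, 7.72 and 7.41 in SH, below every Col-0 array of the same light. In sav1-1 it was 6.57, 6.57 and 6.46 in Wc and 8.20, 8.12 and 7.90 in SH, and overlapped with Col-0.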

How the data were processed

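The table the authors deposited gives linear intensity values of 22810 probe sets on each array. GCRMA is listed without a version, per the submitters' processing notes. Array medians of the deposited intensity values ran from 34.4 to 65.6, so the 22746 probe sets left without the 64 controls were quantile normalized, which hides a shift of most genes one way. Tests used log2(value + 16), with fold changes of dim genes understated, on the 17125 probe sets above log2 level 4 on at least 3 of 18 arrays. The means of the 6 groups were fitted together (limma 3.58.1, R 4.3.3, lmFit and then eBayes with trend), tests were two-sided, and called means an adjusted p under 0.05 after Benjamini-Hochberg adjustment across the tested probe sets. SE uses the moderated variance of limma. The number of arrays limits the precision.

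Gene names came from the platform annotation, updated through a TAIR10.1 gene table used for names and gene order only: 13513 probe sets name 1 gene (13484 matched), 503 several and 8730 are unnamed here. The members, the gene lists and the tests were chosen with earlier results of these data known. Every member naming 1 gene is named. Values on every array are given for the 12 with the largest mean rise, for 4 more with the highest ratio of sav3-2 to Col-0 rise, and for those called in a genotype comparison. Single unnamed probe sets were picked after their values were seen. Promoter sequences were not analysed here.

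The titles give the replicate numbers but not what arrays of 1 number share. Deviations from group means correlated between same-numbered genotype means at 0.141 or more, above the threshold of 0.1, so the numbers were taken to pair genotypes. The main fit did not use this pairing, and its SE and adjusted p treat the arrays as unpaired. Only the fit with the replicate number as a block uses it. Between lights the lowest correlation was 0.0714, in number 2 of Col-0, and the numbers were not taken to pair the lights in Col-0. The other correlations between lights ran from 0.105 to 0.29, above that threshold. Alternatives were the values as deposited, median scaling, pseudocounts of 1 and 64, no filter, the replicate number as a block, array weights, only probe sets that name 1 gene, leaving out each array, and leaving out the 6 arrays numbered 3.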

Additional observations from a re-analysis of the deposited data

How the results depend on the processing

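The rule found 79 members. It found 51 with a pseudocount of 64, 27 among only the probe sets that name 1 gene, and 76 to 90 when 1 array was left out. On the values as deposited 65 of the 79 were found again, with arrays scaled to a common median 77 and with a pseudocount of 1 all 79. Of the members called higher after shade there were 71 in Col-0 (24 with only 1-gene probe sets, 39 as deposited, 53 to 74 without 1 array), 64 in sav3-2 (22, and 40 to 69 without 1 array) and 77 in sav1-1 (27, and 63 to 78 without 1 array). Over all probe sets tested, calls in either direction were 191, 138 and 316 in that order of genotypes. With only 1-gene probe sets they were 78, 56 and 133, and as deposited 85 in Col-0. Without 1 array they ran from 137 to 206, 67 to 154 and 190 to 344. The genotype differences over both lights gave 24 called members for sav3-2 against Col-0 (3 with only 1-gene probe sets, 21 to 29 without 1 array). The replicate block gave 33, and the other settings 18 to 33, with the 18 on the values as deposited. Over all probe sets tested, the 386 calls of this comparison became 779 with the block and 166 as deposited. They became 147 with only 1-gene probe sets and 283 to 411 without 1 array. For sav1-1 against Col-0 the 6 calls became 20 with the replicate block, 13 with array weights, 14 without the 6 arrays numbered 3, 3 as deposited (all of them higher), 2 with only 1-gene probe sets and 4 to 9 without 1 array. Over all probe sets tested, the 263 calls of that comparison became 577 with the block and 565 with array weights. They became 320 without the arrays numbered 3, 115 as deposited, 120 with only 1-gene probe sets and 148 to 290 without 1 array. For sav1-1 against sav3-2 the 20 calls became 35 with the replicate block, 5 with only 1-gene probe sets and 18 to 22 without 1 array. Over all probe sets tested, the 492 calls there became 851 with the block, 201 with only 1-gene probe sets and 341 to 524 without 1 array. The block changed no other count of members by more than 1.5 times. Using only 1-gene probe sets leaves fewer members by construction, and for the other settings the cause was not tested. As deposited, the median of all probe sets shifts by -0.157 for shade in Col-0, 0.115 for shade in sav3-2 and 0.111 for sav1-1 against Col-0, so differences there are to be read against those shifts. Of 600 rise values of the 20 members shown, recomputed under the alternatives, 544 stayed within 1 SD of the main value, 56 moved by more and 0 changed sign. Of the 56, 29 moved with a pseudocount of 64 and 13 with a pseudocount of 1.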

Other observations

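Several near misses had rises as large as those of members. AT5G02540, named after its values were seen, had rises of 1.59 in Col-0, 2.16 in sav3-2 and 2.18 in sav1-1, and missed membership because its highest Col-0 Wc array lay 0.08 above its lowest Col-0 SH array. AT1G33055, AT3G51660, AT3G07350 and AT1G73480 also name 1 gene and missed for overlap alone.

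By the gene order of the TAIR10.1 table, 4 named members lie close to a gene of the lists or markers used here. AT4G16770 is next to HB-2 (AT4G16780), the shade marker ATHB2, with 0 protein-coding genes between them. AT4G32290 is separated from IAA29 by 1 gene. AT5G66590 is separated from PSBO1, a photosystem II gene, by 1 gene, and EXO from CRY1 by 2 genes. Neighbours were looked up only among genes of the lists, the markers and the shade-raised probe sets, and their positions were not tested against other genes.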
